A study of Mus musculus with 2 samples.

Results

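Genes of the intestinal brush border and the enterocyte, 10 in number, were described in RNA of medullary thymic epithelial cells. These cells (mTEC) line the thymic medulla and show proteins of peripheral organs to developing T cells. The genes were taken by symbol: all lines of both expression tables whose RefSeq accession belongs to Vil1, Lct, Sis, Alpi, Guca2a, Guca2b, Anpep, Mep1a, Mep1b or Cdh17. Each of the 10 had exactly 1 transcript line, so 10 of 30794 lines and 10 of 23123 gene symbols were used. Thymi of WT B6 mice were pooled, and mTEC were sorted on surface MHC class II into a high population (library mTEChi) and a low population (library mTEClo). Each gave 1 poly(A)-selected library, so neither group has a replicate, and every statement describes these 2 libraries without a test. Reads were pairs of 100 bases for mTEChi and single ends of 50 bases for mTEClo, so read layout and group cannot be told apart. The number of mice pooled and their age are not given in the sources used here.

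Absorptive cells of the small intestine carry a brush border, a dense field of microvilli whose actin cores are bundled by villin and whose membrane is packed with enzymes that finish the digestion of sugars, peptides and phosphate esters. The same epithelium secretes the guanylin peptides, which act on a receptor guanylate cyclase at the microvillus surface and control salt and fluid secretion. In the thymus such genes count among the tissue-restricted antigens, many of which depend on the regulator Aire in mature, MHC class II high mTEC.

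All 5 markers of thymic epithelium were above 0 in both libraries, in RPKM (reads scaled to transcript length and library depth). Epcam, an epithelial surface protein, had 198 in mTEChi against 127 RPKM in mTEClo, and the keratin Krt8 had 1020 against 701 RPKM. The keratins Krt5, with 448 against 770 RPKM, and Krt14, with 231 against 566 RPKM, were lower in mTEChi, and Foxn1, the master regulator of thymic epithelium, was higher there with 28.1 against 6.29 RPKM. The list summed to 1920 against 2170 RPKM, and its part in the levels of the 10 genes was not tested. The sort was visible in H2-Aa, an MHC class II chain, with 4910 against 1520 RPKM, and in Aire with 122 against 15.9 RPKM. The steps in the values imply about 115000000 reads in mTEChi and 20900000 in mTEClo. In mTEChi, low read numbers were more often even (566 transcripts at 2, 4, 6 or 8 reads) than odd (442 at 1, 3, 5 or 7), whereas mTEClo had 255 and 256. An excess of even numbers is what mates of a pair counted singly would give, which was not tested, so the counting intervals of mTEChi below use read numbers divided by 2. All intervals are exact Poisson or binomial intervals at 95% and cover counting error only.

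The promoters of 5 of the genes are shown because they cover the range of the values that follow: a disaccharidase and a phosphatase that were near or at 0 in mTEClo, the pair of guanylin genes, and Anpep, the 1 gene of the group whose value was higher in mTEClo. The sequences are the 250 bases before the transcript start, from RefSeq on GRCm38.p6, a later build than the authors' mm9, read 5′ to 3′ on the strand of the gene. Capitals mark matches on either strand to a set of motifs. These were the TATA box as TATAAA, the CDX motif as TTTATNG with its core TTTAT, the HNF4 motif as CAAAGTCCA and the GATA core as AGATAA. CDX, HNF4 and GATA factors are well-known regulators of enterocyte genes. The windows are Sis at chr3:72967864-72968113 (minus strand), Alpi at chr1:87101607-87101856 (minus), Guca2a at chr4:119637482-119637731 (plus), Guca2b at chr4:119658946-119659195 (minus) and Anpep at chr7:79848211-79848460 (minus).

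Sis: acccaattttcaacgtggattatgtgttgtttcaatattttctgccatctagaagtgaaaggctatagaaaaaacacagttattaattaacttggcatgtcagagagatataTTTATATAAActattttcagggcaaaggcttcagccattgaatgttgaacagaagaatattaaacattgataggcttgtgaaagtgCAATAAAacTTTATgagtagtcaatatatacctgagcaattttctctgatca

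Alpi: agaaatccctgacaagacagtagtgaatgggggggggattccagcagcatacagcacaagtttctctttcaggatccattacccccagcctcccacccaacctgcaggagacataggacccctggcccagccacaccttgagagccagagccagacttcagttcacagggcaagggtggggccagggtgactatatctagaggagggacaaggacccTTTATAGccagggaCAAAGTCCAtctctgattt

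Guca2a: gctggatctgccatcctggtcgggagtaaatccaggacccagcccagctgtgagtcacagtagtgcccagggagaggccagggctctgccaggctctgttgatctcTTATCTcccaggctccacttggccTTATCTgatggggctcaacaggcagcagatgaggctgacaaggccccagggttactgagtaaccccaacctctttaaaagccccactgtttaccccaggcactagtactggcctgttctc

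Guca2b: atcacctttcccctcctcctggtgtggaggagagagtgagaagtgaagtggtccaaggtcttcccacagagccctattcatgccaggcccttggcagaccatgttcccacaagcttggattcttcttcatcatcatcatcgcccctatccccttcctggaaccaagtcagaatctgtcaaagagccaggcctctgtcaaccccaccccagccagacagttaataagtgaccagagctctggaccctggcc

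Anpep: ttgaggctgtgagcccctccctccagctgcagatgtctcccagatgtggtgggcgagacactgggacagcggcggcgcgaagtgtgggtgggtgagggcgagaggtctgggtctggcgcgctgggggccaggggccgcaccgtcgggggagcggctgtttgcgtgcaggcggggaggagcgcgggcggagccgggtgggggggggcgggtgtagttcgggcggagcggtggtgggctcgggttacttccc

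The promoter of Sis was AT-rich, with 31.6% G and C, and held matches to the TATA and CDX motifs. Its TATA matches lay at -138 to -133 on the opposite strand and at -134 to -129, counted in bases from the transcript start. Its CDX match lay at -52 to -46. The TATA motif and the CDX core overlap by their letters, since the reverse complement of TATAAA contains TTTAT, so matches to both can be 1 stretch. In Alpi a single stretch from -33 to -27 matched TATA, on the strand opposite to the gene, and CDX. An HNF4 motif followed at -19 to -11. Guca2a had a pair of GATA cores, and the Guca2b window had no match. In the RefSeq table no gene lies between these guanylin genes, which are neighbours on chromosome 4. The Anpep window had 72.8% G and C, against a median of 52.4% over all promoters, and matched none of these letters.

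**Figure D1:**
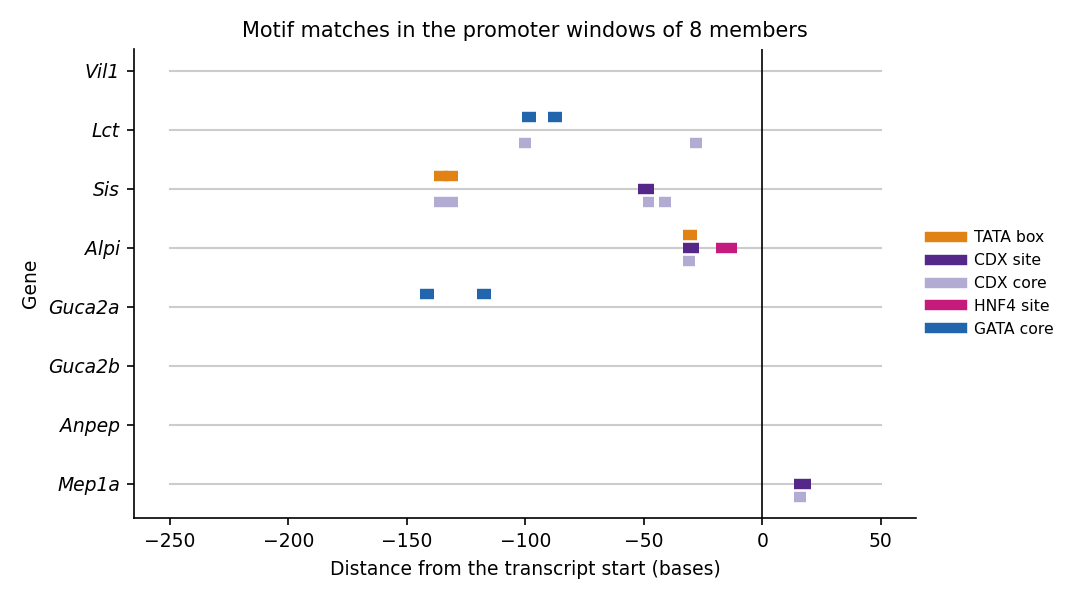
Motif matches in the promoter windows of 8 of the 10 genes, by distance in bases from the transcript start (x axis; each grey line is 1 gene's window of 250 bases before to 50 after it). Coloured bars are matches on either strand. Vil1, Guca2b and Anpep have none, and the bars of Sis, Lct, Alpi and Mep1a include overlapping matches to more than 1 motif.

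Windows reaching from 250 bases before to 50 after the start were searched for 8 of the 10 genes. The TATA motif was present in 2 of 8 and in 13.6% of all 32851 promoters, and TTTATNG in 3 of 8 and 10.9%. The CDX core was present in 4 of 8 and 40%, and the GATA core in 2 of 8 and 11.2%. CAAAGTCCA, the rarest motif, was present in 1 of 8 (Alpi) and in 0.475% of all promoters. The CDX match of Mep1a lay after the start, at bases 14 to 20. These matches are letters in a window and say nothing of binding in these cells.

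Of the 10 genes, 6 were above 0 in both libraries and at least 2-fold higher in mTEChi, where 11.4% of all kept genes above 0 in mTEClo were. A further 2 (Alpi and Guca2a) were listed at 0 in mTEClo, 1 (Anpep) was somewhat lower in mTEChi and 1 (Lct) lay below the filter in use. Sis and Mep1b, among the 6, passed that filter only through mTEChi. Without them, 4 of the 5 genes with 0.5 RPKM or more in mTEClo were 2-fold higher, against 9.41% of all such genes. Summed over the 10 genes, the level was 174 RPKM in mTEChi and 22.6 RPKM in mTEClo. Changes are given as log2((high + 1)/(low x 1.21 + 1)) in RPKM, where 1.21 sets the median ratio of well-expressed genes to 0 on the log2 scale. The filter kept genes whose mean over both libraries was at least 0.5 RPKM, and 1 on this scale counts as 2-fold. Ratios quoted with an interval are after the same scaling but without the added 1 RPKM.

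**Figure D2:**
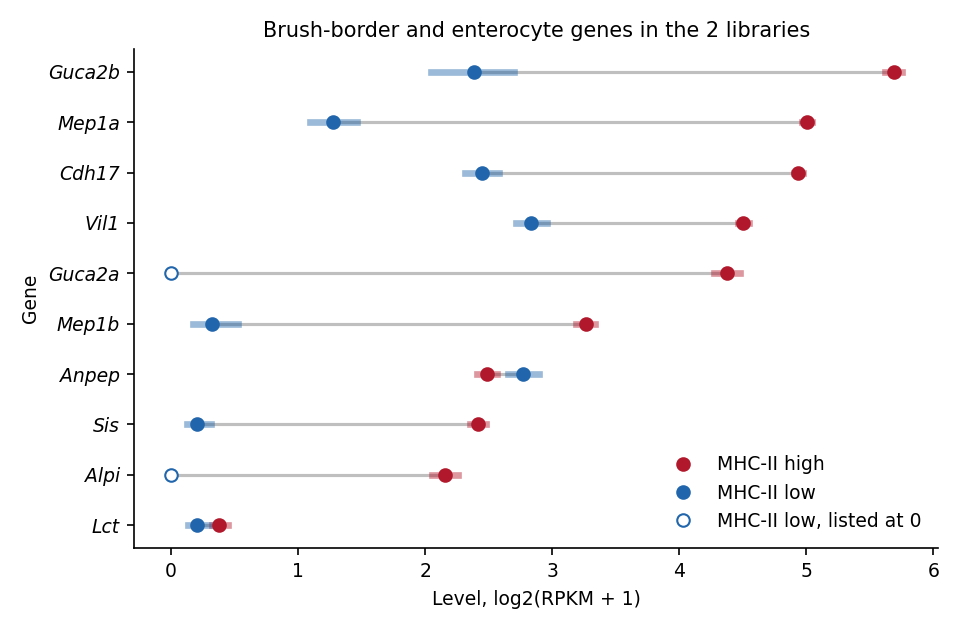
Level of each gene as log2(RPKM + 1) on the x axis in the mTEChi (red, MHC-II high) and mTEClo (blue, MHC-II low) library, with 95% counting intervals as thick bars and genes in the order of mTEChi. Anpep alone has its blue point to the right of the red one, and the open blue points of Guca2a and Alpi mark values listed at 0.

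Among the structural genes, Vil1 encodes villin, which bundles and severs the actin filaments of the microvillus core. It was listed at 21.7 RPKM in mTEChi and at 6.13 RPKM in mTEClo. The log2 change was 1.43, and the ratio was 2.93 (interval 2.64 to 3.25). Vil1 was the highest of the 10 genes in mTEClo and only the 4th in mTEChi, and it had the smallest change among the genes past 2-fold. Usp37, a deubiquitinase gene that overlaps Vil1 in the RefSeq table, had 2.41 against 1.19 RPKM, and reads in the overlap cannot be assigned without strand.

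Cdh17 encodes liver-intestine cadherin, an adhesion molecule of the lateral membrane of enterocytes. It was listed at 29.6 RPKM in mTEChi and 4.45 RPKM in mTEClo. Its log2 change was 2.26 and its ratio 5.51 (4.92 to 6.18). Its level lay at percentile 91.2 of all gene symbols in mTEChi and at percentile 64.3 in mTEClo.

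The disaccharidases were the lowest pair of the group in mTEClo among genes above 0, and they parted in mTEChi. Sis, sucrase-isomaltase, which splits sucrose and the branch points of starch, was listed at 4.33 RPKM in mTEChi and 0.154 RPKM in mTEClo. The low value corresponds to 19 reads, so the ratio of 23.2 has a wide counting interval of 14.8 to 38.7. Its log2 change of 2.17 shrank to 0.85, below 2-fold, with 5 RPKM added in place of 1. Lct, lactase, which splits milk sugar, was listed at 0.301 RPKM in mTEChi and 0.155 RPKM in mTEClo. Those are about 213 and 20 reads, and the ratio of 1.6 had an interval of 0.988 to 2.73, which includes 1. Lct and Sis thus had nearly the same level in mTEClo, while in mTEChi Sis was far above Lct.

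Alpi encodes intestinal alkaline phosphatase, which removes phosphate from bacterial lipopolysaccharide and nucleotides. It was listed at 3.46 RPKM in mTEChi (3.15 to 3.78) and at 0 in mTEClo. At an equal scaled level about 140 reads would stand in mTEClo. A value of 0 can also be a failed estimate, since Rps21, a ribosomal protein gene that every cell uses, was listed at 144 RPKM in mTEChi and at 0 in mTEClo, so no ratio is given for genes at 0. The phosphatase genes next to Alpi are near copies that can share its reads. Akp3 had 6.62 against 0.0285 RPKM, and Alppl2 had 3.75 RPKM in mTEChi and was listed at 0 in mTEClo, so all 3 neighbours were listed at or near 0 in mTEClo, and the split among them is uncertain.

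The peptidases included both meprin subunits, which were higher in mTEChi, and Anpep, which was not. Mep1a, the alpha subunit of meprin, a secreted and membrane-linked zinc protease, was listed at 31.1 RPKM in mTEChi and 1.42 RPKM in mTEClo. Its log2 change of 3.56 was the largest of the genes above 0 in both libraries on this scale, and its ratio was 18.1 (14.6 to 22.6). Mep1b, the beta subunit, which anchors meprin in the membrane, was listed at 8.6 RPKM in mTEChi and 0.251 RPKM in mTEClo. The low value rests on 12 reads, and the ratio of 28.3 ran from 16.2 to 55.0. The counting intervals of the meprin ratios overlap, and a difference in fold between the subunits was not tested. The alpha subunit had the higher level in both libraries.

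Anpep, aminopeptidase N, trims single residues from the ends of peptides and is also known as CD13 on myeloid cells, fibroblasts and pericytes. It was listed at 4.61 RPKM in mTEChi (4.32 to 4.92) and 5.84 RPKM in mTEClo (5.29 to 6.43). The ratio was 0.653 (0.581 to 0.735) and the log2 change -0.52, short of 2-fold. In the order of the group Anpep was 7th in mTEChi and 2nd in mTEClo. Without scaling the log2 change was -0.29, and after setting both libraries to 1 upper quartile it was -0.15, so the size of this difference depends on the scaling.

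Both guanylins were well above most genes in mTEChi. Guca2b, uroguanylin, was listed at 50.5 RPKM in mTEChi, the highest of the 10 genes, and at 4.23 RPKM in mTEClo. Its log2 change was 3.07 and its ratio 9.87 (7.51 to 13.2). Guca2a, guanylin, was listed at 19.8 RPKM in mTEChi (18.3 to 21.3) and at 0 in mTEClo, where about 203 reads would stand at an equal scaled level. In mTEClo Guca2b stood at about 53 reads, and since a listed 0 can be a failed estimate, the neighbouring genes are not compared there. The RefSeq table places a provisional gene over each of Alpi, Guca2b and Mep1b, and reads in such overlaps cannot be assigned either.

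The order of the levels differed between the libraries. In mTEChi it ran Guca2b, Mep1a, Cdh17, Vil1, Guca2a, Mep1b, Anpep, Sis, Alpi, Lct, and the neighbours Mep1a and Cdh17, Vil1 and Guca2a, and Anpep and Sis had overlapping counting intervals. In mTEClo it ran Vil1, Anpep, Cdh17, Guca2b, Mep1a, Mep1b, Lct, Sis, with Guca2a and Alpi at 0. There the neighbours Vil1 and Anpep, Cdh17 and Guca2b, Mep1b and Lct, and Lct and Sis overlapped. The spread between replicates is not known for any of these genes.

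Among all genes, 15590 were kept, and 16.1% of them were at least 2-fold higher in mTEChi and 9.35% at least 2-fold lower. Of the 10 brush-border and enterocyte genes, 9 were kept, 8 of them 2-fold higher and 0 2-fold lower. The median log2 change of the 9 was 2.26, with Alpi and Guca2a entered at their listed 0, and that of all kept genes was 0.03. Sis, Alpi, Guca2a and Mep1b passed the filter only through mTEChi, so their place past 2-fold is partly set by the filter. A value of 0 in mTEClo was listed for 2 of the 9 and for 5.32% of all kept genes, and each such gene is past 2-fold by construction. The 5 genes with 0.5 RPKM or more in mTEClo itself were Vil1, Cdh17, Guca2b, Mep1a and Anpep. With 5 RPKM added in place of 1, 6 of the 9 were 2-fold higher, and Sis, Alpi and Anpep were not. Of all 15590 kept genes, 877 were 2-fold higher in that setting.

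**Figure D3:**
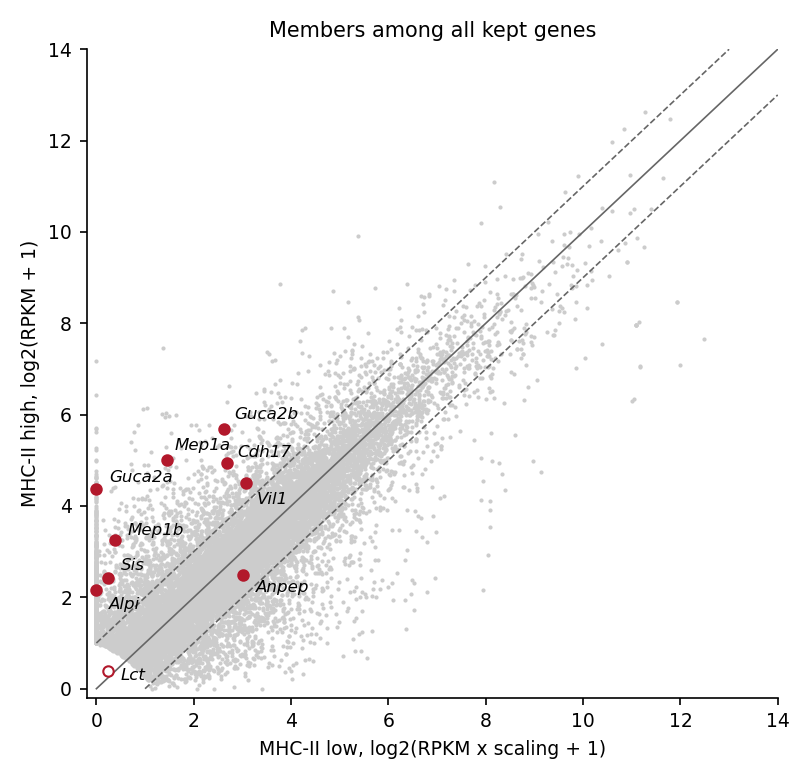
All kept genes (grey) by level in mTEClo (MHC-II low) after scaling (x axis) and in mTEChi (MHC-II high) (y axis), both as log2(RPKM + 1), with the 10 genes in red. The solid line marks equal levels and the dashed lines 2-fold; 8 red points, Alpi and Guca2a at a listed 0 among them, lie above the upper dashed line, Anpep lies below the solid line within 2-fold, and Lct (open) is below the filter of 0.5 RPKM.

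Genes that work beside these 10 in the enterocyte were taken from 6 lists. Of 64 genes, 57 were kept, 42 of them 2-fold higher in mTEChi and 1 2-fold lower, against 16.1% and 9.35% of all kept genes. Of the 42, 4 were listed at 0 in mTEClo and so past 2-fold by construction, and among genes above 0 there the number was 38 of 53, against 11.4%. Among genes with 0.5 RPKM or more in mTEClo it was 21 of 33, against 9.41%. With 5 RPKM added in place of 1 the number higher was 19 of 57, against 877 of all 15590 kept genes. These shares over all genes also apply to each list below. In bulk RNA, fewer cells that make a transcript and less of it per cell cannot be told apart, here and for the 10 genes above.

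Of 13 microvillus scaffold genes, all kept, 10 were 2-fold higher and 0 lower (median log2 change 1.31). The shares over all kept genes were 16.1% higher and 9.35% lower. With 0.5 RPKM or more in mTEClo the number higher was 8 of 11, against 9.41% of all such genes. With 5 RPKM added it was 5 of 13. Slc9a3r1, the scaffold NHERF1, had 130 against 44.7 RPKM (log2 change 1.24), and Cdhr5, a protocadherin that links microvillus tips, had 39.2 against 9.74 RPKM (1.66). Anks4b, a scaffold of the same tip complex, had 33.7 against 5.26 RPKM (2.24). The remaining abundant genes were closer to equal: Ezr, ezrin, had 113 against 60.0 RPKM (0.63), and Espn, the actin bundler espin, had 32.3 against 35.3 RPKM (-0.39).

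Of 14 other brush-border hydrolases, 13 were kept, 10 of them 2-fold higher and 0 lower (median 1.6). Over all kept genes 16.1% were higher and 9.35% lower. Most of the 10 passed the filter only through mTEChi. With 0.5 RPKM or more in mTEClo the number higher was 2 of 5, against 9.41% of all such genes. With 5 RPKM added it was 3 of 13. Asah2, neutral ceramidase, had 11.8 against 1.76 RPKM (2.04), and Alpl, the tissue-nonspecific phosphatase, had 9.77 against 0.342 RPKM (2.93). Xpnpep2, an aminopeptidase, had 5.8 against 0.657 RPKM (1.92). Like Anpep, Ace, the angiotensin-converting enzyme, was higher in mTEClo, with 2.83 against 4.79 RPKM (-0.82). So was Mme, another peptidase, with 1.08 against 1.39 RPKM (-0.36). Treh and Tmprss15 were kept and listed at 0 in mTEClo.

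Of 13 absorptive transporters only 7 were kept, 5 of them 2-fold higher and 0 lower, against 16.1% and 9.35% of all kept genes. All 5 higher transporters were below 0.5 RPKM in mTEClo and passed the filter only through mTEChi. Of the 2 transporters at or above that level there, 0 were 2-fold higher, against 9.41% of all such genes. None of the list reached a mean of 5 RPKM, and with 5 RPKM added the number higher was 2 of 7. Abcg5 and Abcg8, which together export sterols, had 8.27 against 0.296 RPKM (2.77) and 4.32 against 0.222 RPKM (2.07). Slc5a1, the sodium-glucose transporter, had 8.16 against 0.17 RPKM (2.93), and Slc6a19, a neutral amino acid transporter, had 2.38 against 0.157 RPKM (1.51). Slc3a1, a subunit of a cystine transporter, had 4.47 against 2.03 RPKM (0.66). The 6 transporters below the filter had between 0.118 and 0.861 RPKM in mTEChi and were all listed at 0 in mTEClo.

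Lipid-handling genes had 8 of 9 members 2-fold higher and 0 lower (median 2.09), with 1 of the 8 (Mogat2) at a listed 0 in mTEClo. The shares over all kept genes were 16.1% higher and 9.35% lower. With 0.5 RPKM or more in mTEClo the number higher was 6 of 7, against 9.41% of all such genes. Apoa4, an apolipoprotein of chylomicrons, had 352 against 28.9 RPKM (3.29) and Apoa1 116 against 21.8 RPKM (2.09). Fabp6, the ileal bile acid-binding protein, had 49.9 against 2.72 RPKM (3.57), and Fabp1 had 49.8 against 16.1 RPKM (1.32). Mttp, which loads lipid onto apolipoprotein B, had 19.6 against 1.63 RPKM (2.79).

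The receptor of the guanylins was higher in mTEChi, as was Guca2b. Gucy2c, that receptor guanylate cyclase, had 5.8 against 0.173 RPKM (2.49), and Cftr, the chloride channel opened downstream of it, had 4.81 against 0.0911 RPKM (2.39). Pde5a, which breaks down cyclic GMP, had 2.77 against 0.562 RPKM (1.17). Prkg2, the cyclic GMP-dependent kinase, had 2.93 against 1.07 RPKM (0.78) and Slc26a6, an anion exchanger, 0.928 against 0.487 RPKM (0.28), so 3 of 5 were past 2-fold. Over all kept genes the share higher was 16.1%. With 0.5 RPKM or more in mTEClo the number higher was 1 of 2 (Pde5a), against 9.41% of all such genes. With 5 RPKM added it was 1 of 5.

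Of 10 enterocyte transcription factors, 6 were 2-fold higher and 1 lower (median 1.14), against 16.1% and 9.35% of all kept genes. With 0.5 RPKM or more in mTEClo 4 of 6 were higher, against 9.41% of all such genes. With 5 RPKM added the number higher was 2 of 10. Cdx1, an intestinal homeobox factor, had 100 against 33.0 RPKM (1.31). Hnf4g had 6.02 against 1.9 RPKM (1.09), Gata4 5.63 against 1.57 RPKM (1.2) and Creb3l3 4.79 against 0.398 RPKM (1.97). Gata6 was the lower one, with 0.15 against 2.13 RPKM (-1.63), and 1 of 10 is near the share lower over all kept genes. Cdx2, the other intestinal CDX factor, was chosen for mention after its values were seen and had 1.77 against 0.179 RPKM (1.19).

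**Figure D4:**
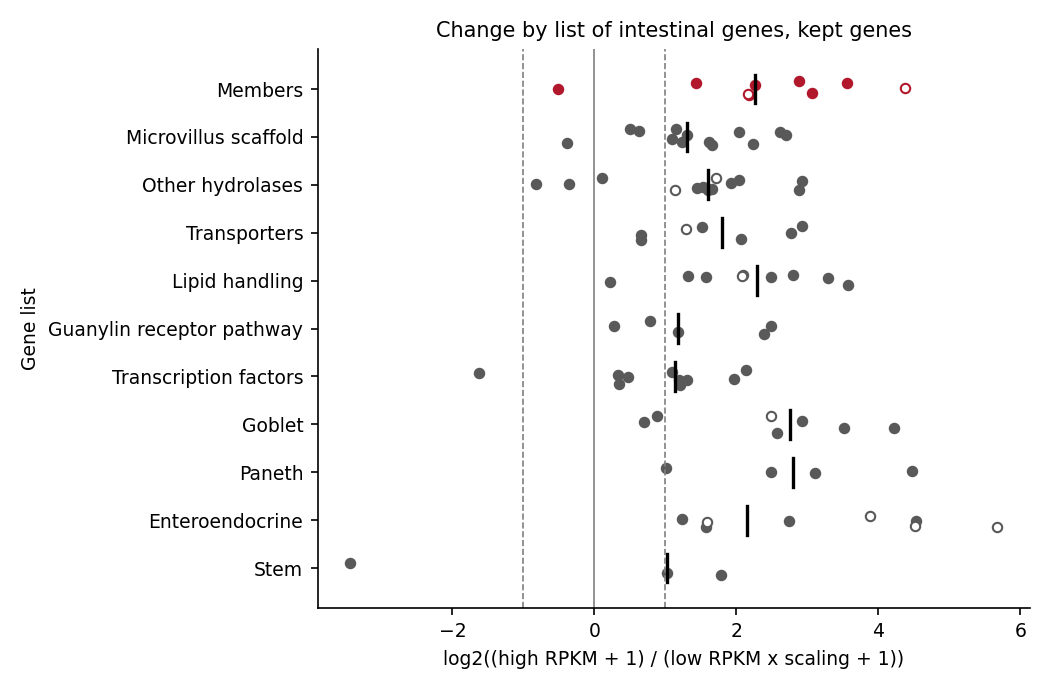
log2 change (x axis) of each kept gene by list (y axis), with the 10 brush-border and enterocyte genes in red at the top. Filled points are genes above 0 in both libraries, open points are genes listed at 0 in mTEClo (placed at log2(high RPKM + 1)), black bars are medians of the filled points and dashed lines mark 2-fold; Anpep is the red point left of 0, and Gata6 and Smoc2 are the grey points left of the lower dashed line.

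Markers of the other cell types of the gut lay on the same side as most enterocyte genes. Of kept genes, 5 of 7 for goblet, 4 of 4 for Paneth and 8 of 8 for enteroendocrine cells were 2-fold higher in mTEChi. In these lists 0 were lower, and the shares over all kept genes were 16.1% higher and 9.35% lower. Of the higher genes, 4 enteroendocrine genes and 1 goblet cell gene were at 0 in mTEClo and so past 2-fold by construction. With 0.5 RPKM or more in mTEClo the numbers higher were 4 of 5, 4 of 4 and 4 of 4, against 9.41% of all such genes. With 5 RPKM added they were 4 of 7, 3 of 4 and 6 of 8, against 877 of 15590 kept genes. Zg16, a goblet cell lectin, had 29.5 against 0.527 RPKM (4.22), Tff3 145 against 9.72 RPKM (3.51), Spink4 68.5 against 8.89 RPKM (2.57) and Agr2 15.4 against 0.945 RPKM (2.93). Fcgbp, a mucus protein, had 680 against 347 RPKM (0.7). Among Paneth genes, Ang4 had 61.9 against 1.52 RPKM (4.47), Mmp7 44.2 against 3.49 RPKM (3.11), Itln1 34.6 against 13.8 RPKM (1.01) and Lyz1 465 against 68.1 RPKM (2.48). Lyz1 can share reads with its near copy Lyz2, a myeloid gene. Pla2g2a lay below the filter, with 0.146 RPKM in mTEChi and 0 listed in mTEClo.

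Hormone genes ranged widely in mTEClo. Nts, neurotensin, had 60.6 against 1.38 RPKM (4.53), Sct, secretin, 28.1 against 7.27 RPKM (1.57) and Cck 16.2 against 5.23 RPKM (1.23), while Pyy and Gip were listed at 0 in mTEClo and at 50.1 and 21.8 RPKM in mTEChi. Stem cell genes were mixed. Olfm4 had 54.4 against 12.5 RPKM (1.78), Ascl2 1.53 against 0.208 RPKM (1.02) and Smoc2, a matrix protein gene, 3.23 against 37.2 RPKM (-3.44). Lgr5, the defining stem cell marker, was at 0.0887 RPKM in mTEChi and 0.0203 RPKM in mTEClo, below the filter. Whether the members and these lists differ from each other was not tested.

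Markers of non-epithelial cells moved with the groups in both directions. Of all kept genes, 9.35% were 2-fold lower in mTEChi and 16.1% higher. Fibroblast markers had 6 of 6 2-fold lower in mTEChi, with a summed level of 30.4 against 492 RPKM and 0 of 6 at 0. Dcn had 19.5 against 276 RPKM and Lum 2.31 against 75.8 RPKM. Endothelial markers had 5 of 5 lower (11.0 against 102 RPKM summed), with Pecam1 at 4.79 against 59.2 RPKM and Cdh5 at 1.81 against 19.3 RPKM. Pericyte markers had 2 of 5 lower and 1 higher (165 against 268 RPKM summed), with Acta2 at 32.0 against 198 RPKM and Rgs5 at 126 against 49.1 RPKM. The fibroblast and endothelial lists lay on the same side as Anpep and Ace, whereas the pericyte list was split (median log2 change -0.21) and its higher sum in mTEClo came mainly from Acta2. The part of these cells in the values of Anpep and Ace was not tested.

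Myeloid markers went the way of the other members, with 4 of 5 kept genes 2-fold higher, against 16.1% of all kept genes. They summed to 525 against 138 RPKM, of which Lyz2 made up 493 and 133 RPKM and C1qb 22.3 and 2.71 RPKM. Fcgr1 was at 0.0807 RPKM in mTEChi and listed at 0 in mTEClo. B cell markers summed to 23.4 against 11.3 RPKM, with Cd79b at 19.8 against 10.8 RPKM, and Cd79a and Ms4a1 were listed at 0 in mTEClo. Thymocyte markers summed to 7.5 against 3.88 RPKM, with Cd4 at 5.13 against 0.959 RPKM and Cd3e at 0.576 against 1.5 RPKM. Erythroid markers summed to 142 against 1930 RPKM, nearly all of it Hba-a1, with Alas2 at 8.73 against 10.5 RPKM. The part of these cells in the levels of the 10 genes was not tested.

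**Figure D5:**
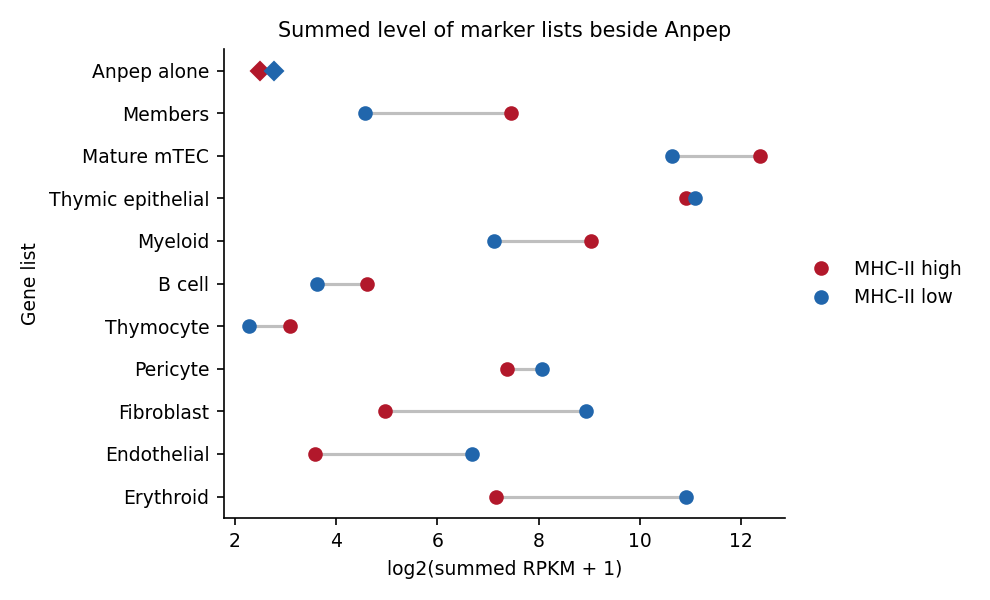
Summed level of each marker list as log2(summed RPKM + 1) (x axis) in the mTEChi (red, MHC-II high) and mTEClo (blue, MHC-II low) library, with Anpep alone as diamonds at the top. The sum of the 10 genes and the mature mTEC, myeloid, B cell and thymocyte sums are higher in mTEChi, whereas Anpep and the thymic epithelial, pericyte, fibroblast, endothelial and erythroid sums are higher in mTEClo.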

How the data were processed

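Poly(A)-selected RNA of 2 libraries was read from 1 deposited file each. The authors deposited RPKM per RefSeq transcript line, scaled to transcript length and library depth. The submitters' processing notes list the build mm9 and the tools bedtools, CASAVA and Bowtie (1.0.0) without their roles, and for reads shared by copies the treatment is not given in the sources used. The kit keeps no strand, per the labels' protocols.

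Of 30794 lines, 30216 got a symbol from RefSeq's gene table (GRCm38.p6) and 180 through GENCODE, and 398 were left out. Where a gene had several lines, the line with the highest mean RPKM was used. Depth was recovered as the read number at which RPKM times GENCODE length falls on whole reads: of transcripts with 1 to 10 reads, 77.3% (of 1464, mTEChi) and 68.0% (of 956, mTEClo) were no more than 0.1 away from one. Lengths can differ from the authors'. The scaling of 1.21 was set on 5167 genes averaging at least 10 RPKM. A pseudocount of 1 RPKM understates changes of low genes.

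The members, the gene lists and the call rule were chosen with earlier results of these data known. All members were named, and in each other list up to 5 genes with the highest value in either library and every gene 2-fold lower (in lists of non-epithelial cells the highest 2), except that a few genes, and 1 of the planned motifs, are not reported here. With 2 libraries no likeness of pattern was computed. The procedure was tested on simulated data. Alternatives were other pseudocounts, scalings, filters and the mean over transcript lines, and 2 filters on mTEClo were added after the data were seen. Clca3, Cd68 and Hbb-b1 matched no symbol and were not analysed here. Scripts ran under Python 3.11.15 with matplotlib 3.10.9, scipy 1.17.1, pandas 2.3.3 and numpy 2.4.6.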

Additional observations from a re-analysis of the deposited data

How the results depend on the processing

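No log2 change of a member above 0 in both libraries took the other sign under the pseudocounts, scalings and transcript choice tried. With a mean of 5 RPKM or more required, 5 of 6 kept members were 2-fold higher and 1 was listed at 0 in mTEClo. The 6 enterocyte lists then had 17 of 21 genes higher and 0 lower. Of all 8325 genes past this filter, 1010 were higher and 822 lower. With 0.5 RPKM or more required in mTEClo, a filter chosen after the data were seen, 4 of 5 members and 21 of 33 list genes were higher. The share over all such genes was 9.41%. With a pseudocount of 5 RPKM the lists had 19 genes higher and 0 lower, and with 0.1 RPKM 44 higher and 2 lower, against 42 and 1. Over all 15590 kept genes, 0.1 RPKM gave 3177 higher and 2069 lower, against 2508 and 1457. The filters left fewer genes to test, and the filter on mTEClo took out genes that were kept only through mTEChi. A larger pseudocount shrinks the changes of low genes. The part of each in these counts was not tested.

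Across pseudocounts and scalings, log2 changes ran from 1.1 to 1.81 for Vil1, from 1.74 to 2.62 for Cdh17, from 0.85 to 3.95 for Sis, from 1.36 to 4.43 for Mep1b, from 2.43 to 4.1 for Mep1a, from 2.46 to 3.43 for Guca2b, from -0.6 to -0.15 for Anpep and from 0.03 to 0.48 for Lct. Scaling moved the median of all kept genes from 0.03 to 0.25 (none), 0.15 (same sum) and 0.37 (same upper quartile), and the share of higher genes among those past 2-fold from 63.3% to 74.9%, 69.6% and 80.4%. Over all 15590 kept genes the pseudocount of 5 RPKM left 877 higher and 648 lower, against 2508 and 1457. The filter at a mean of 5 RPKM left 1010 and 822 of 8325 genes. No paired analysis was possible because each group has 1 library. For the same reason no library could be left out. Depth limits mTEClo most, where Mep1b, Sis and Lct rest on 12, 19 and 20 reads.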
